A study of Mus musculus with 4 samples.

Results

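Immune nuclei were a small set of nuclei in hepatocyte preparations of mouse liver, chosen for accessible chromatin at immune genes and for little accessibility at hepatocyte genes. A nucleus needed at least 1000 counts in peaks, of which 10 hepatocyte genes (Alb, Apoa1, Apob, Ttr, Hnf4a, Tat, Cps1, Cyp2e1, Serpina1a and Fgb) held under 0.2%. It needed at least 4 counts over 11 immune genes, namely Csf1r, Ptprc, Spi1, Cd5l, Laptm5, Adgre1, Clec4f, Cybb, Ctss, Ctsc and Evi2b. This sum also had to exceed those over 5 endothelial genes (Kdr, Pecam1, Stab2, Egfl7 and Ehd3) and over 5 stellate cell genes (Pdgfrb, Lrat, Reln, Des and Col1a2). The rule found 157 of 15349 nuclei. They were 44 of 3977 in undamaged liver (PHx 0 h), 52 of 3892 at PHx 48 h, 56 of 4256 at PHx 72 h and 5 of 3224 at PHx 96 h, where PHx (partial hepatectomy) is surgery that takes out part of the liver.

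The study followed chromatin accessibility as the liver regrows, with scATAC-Seq, in which a transposase cuts open DNA in single nuclei and a barcode marks the nucleus. The mice of all 4 libraries were male C57BL/6J, aged 10 to 12 weeks by the labels and on normal diet, and no transgene, deletion or drug is named. The study's methods give a slightly younger age at surgery. Each time point had 1 library, with nuclei of a single hepatocyte preparation behind that of 0 h and of 1 mouse behind that of 48 h. The study isolated hepatocytes from 4 mice per time point, but the sources used here do not give how many of them went into the libraries of 72 and 96 h. The cells were isolated as hepatocytes by collagenase perfusion, so these nuclei are those that stayed with the hepatocytes, and their share is not that of the liver. Because each time point was 1 library, no difference between time points was tested, and time and library cannot be told apart. All intervals are exact 95% intervals and cover counting error only.

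Kupffer cells are the resident macrophages of the liver. They line the sinusoids, take up particles and old red blood cells, and recycle the iron of the latter. Macrophages depend on the growth factor receptor Csf1r and on PU.1, the transcription factor that Spi1 encodes. Clec4f is a lectin that marks Kupffer cells in mice, Ptprc (CD45) is carried by nearly all leukocytes, and Ctsc and Ctss are lysosomal proteases. Cybb is a subunit of the phagocyte oxidase, and Adgre1 encodes the macrophage antigen F4/80.

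The letters that PU.1 prefers, GAGGAAGT, occurred 4 times in 3 of the 9 leading regions whose sequence was read. These matches are shown because the regions are among the most immune-biased. Region 1, in Csf1r, ranked first and its sequence was not read. Region 2 covers the Ctsc promoter (chr7:88277134-88281329), region 5 lies in an intron of Ctsb, the gene of cathepsin B (chr14:63127959-63132912), and region 6 overlaps an exon of Rasgef1b (chr5:99242136-99249200). Both strands were searched within the stretch of each region that had a peak at 0, 48 and 72 h, of 1514 to 5626 bp. Of 359 regions of such length with enough immune fragments, 20.6% held the letters. Matches per kb were 0.163 in the 9 leading regions and 0.0626 in the 359, and 2 of the 4 matches lie in Ctsc, a selection gene. Each line gives a match with 20 bases on either side, on the + strand of GRCm38.p6, the assembly of mm10. The match is in capitals and reads ACTTCCTC where it lies on the - strand.
Ctsc promoter, match 1, chr7:88277371-88277418: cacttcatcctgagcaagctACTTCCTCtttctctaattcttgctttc
Ctsc promoter, match 2, chr7:88277914-88277961: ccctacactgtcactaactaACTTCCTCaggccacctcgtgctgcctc
Ctsb intron, chr14:63131893-63131940: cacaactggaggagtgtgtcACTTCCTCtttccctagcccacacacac
Rasgef1b, chr5:99246993-99247040: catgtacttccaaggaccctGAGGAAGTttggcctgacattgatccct

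The promoter of Ctsc is printed because this gene had a count in most of the nuclei, and that of Clec4f because it is the marker most narrowly tied to Kupffer cells in the rule. Each window runs from 250 bases before to 50 bases after the start, on the strand of the gene, from RefSeq (GRCm38.p6). The Ctsc window overlapped a called peak in every library and holds match 2 at its bases 100 to 107, in capitals. The Clec4f window overlapped a called peak at 48 h only, and the PU.1 letters are not in it.
Ctsc, chr7:88277835-88278134, + strand: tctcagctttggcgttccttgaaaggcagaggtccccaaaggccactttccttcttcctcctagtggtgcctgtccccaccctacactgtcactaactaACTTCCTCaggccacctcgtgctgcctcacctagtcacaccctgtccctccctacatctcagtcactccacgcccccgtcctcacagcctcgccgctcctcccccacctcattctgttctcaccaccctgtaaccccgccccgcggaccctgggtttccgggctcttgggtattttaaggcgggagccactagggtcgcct
Clec4f, chr6:83656067-83656366, - strand: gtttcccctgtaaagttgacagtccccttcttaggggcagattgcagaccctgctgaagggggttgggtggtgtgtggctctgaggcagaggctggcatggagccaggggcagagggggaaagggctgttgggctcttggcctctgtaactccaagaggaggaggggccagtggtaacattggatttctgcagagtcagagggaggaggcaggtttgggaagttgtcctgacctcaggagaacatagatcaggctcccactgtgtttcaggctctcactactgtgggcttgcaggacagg

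Of the 31 selection and leading genes 23 matched a RefSeq promoter. The PU.1 letters were in 3.28% of all 27025 promoters of this length. Among the 8 immune selection genes with a promoter sequence, those of Ctsc, Ctss and Evi2b held them, and the promoters of Ctss and Evi2b overlapped no called peak in any library. Of 15 leading genes outside the selection with a promoter sequence, 0 held them. The windows of Fth1, Best1 and Itga9 overlapped no called peak in any library. Only 1 listed start per gene was read, and those of Itga9 and Nkiras2 lie inside the annotated gene.

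At 0, 48 and 72 h immune nuclei were 1.11% (0.805 to 1.48), 1.34% (0.999 to 1.75) and 1.32% (0.995 to 1.71) of all nuclei. At 96 h they were 0.155% (0.0504 to 0.362). The first 3 intervals overlapped, and that of 96 h lay below them. The rule asks for a fixed number of counts, and depth fell with each later library. Immune nuclei had median counts of 9426, 5958, 3843.5 and 2336, and nuclei with at least 0.2% hepatocyte counts, called hepatocyte-marker nuclei here, had 28861, 12761, 5431 and 3999. With libraries thinned to the median depth of 96 h the shares were 0.370%, 0.866%, 1.30% and 0.155%. With every nucleus thinned to 1000 counts they were 0.176%, 0.257%, 0.282% and 0.062%. At the median depth of 96 h the interval of 0 h (0.191 to 0.645) thus lay below that of 72 h (0.970 to 1.70) and overlapped that of 96 h (0.0504 to 0.362). At 1000 counts the rule found 7, 10, 12 and 2 nuclei, and all 4 intervals overlapped. With an immune sum of at least 2 the share of 96 h, 1.49% (1.1 to 1.97), was as high as that of 0 h, 1.43% (1.09 to 1.85). With a sum of at least 6 it was 0.031% (0.000785 to 0.173) against 0.729%, and with a hepatocyte limit of 0.4% it was 1.58% (1.18 to 2.07) against 3.29%. Of the immune barcodes, 2 were also a nucleus in another library and 0 were immune in both.

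Many nuclei stood close to the limits of the rule. The median sum over the 11 immune genes was 6, 9.5, 5 and 4 counts at 0, 48, 72 and 96 h, and 11, 11, 25 and 4 nuclei had exactly 4. Just outside, 4, 1, 14 and 1 nuclei had a sum of 3 and met the other conditions, and 9, 17, 67 and 42 had a sum of 2. Most single values are even, so sums of 3 are rare, and at 72 and 96 h more nuclei had a sum of 2 than were members. Hepatocyte genes held between 0.15% and 0.2% of the counts in 4, 4, 17 and 2 immune nuclei, and between 0.2% and 0.25% in 3, 13, 24 and 5 nuclei that were otherwise members. The median hepatocyte share of immune nuclei was 0.0506%, 0.0521%, 0.109% and 0.133%. Immune nuclei of 72 and 96 h were therefore nearer to the hepatocyte limit than those of 0 and 48 h.

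**Figure D1:**
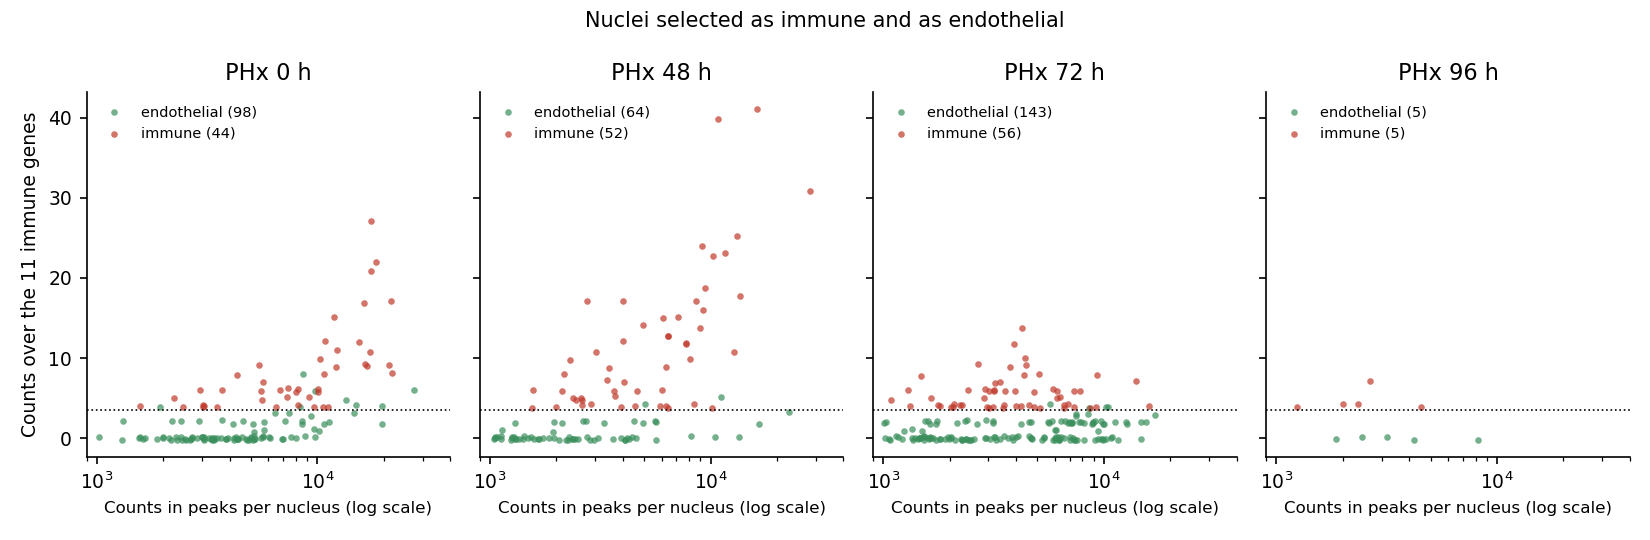
Counts over the 11 immune genes against all counts in peaks (log scale) for each immune and endothelial nucleus, in 1 panel per library, with a small vertical shift for display; the dotted line separates sums of 3 and 4. Immune nuclei reached a sum of 27 at 0 h and 41 at 48 h, while the 5 immune nuclei of 96 h did not exceed 7.

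Few of the 11 genes decided the membership. Only 1 of them had a count in 10, 8, 17 and 2 nuclei at 0, 48, 72 and 96 h, and this gene was Ctsc in 7, 6, 6 and 2. Ctsc had a count in 114 of the 157 nuclei, Csf1r in 98 and Spi1 in 68, Clec4f in 27, Ptprc in 25 and Evi2b in 22. Ctss was seen in 5 nuclei, Adgre1 in 2, and Laptm5 and Cybb in 1 each. Cd5l, a secreted macrophage protein, had no called peak in any library, and Laptm5, Adgre1 and Clec4f had none at 0 and 96 h, so that they could not be read there. A count at Ctsc was found in 72.6% of immune nuclei (64.9 to 79.4), in 35.6% of hepatocyte-marker and in 8.71% of endothelial nuclei. For Spi1 these shares were 43.3% (35.4 to 51.4), 29.5% and 13.2%. At 0 h the shares for Spi1 were close, with 47.7% of immune (32.5 to 63.3) and 47.9% of the deeper hepatocyte-marker nuclei.

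Levels are therefore given below as FPM, the fragments at a gene per 1000000 fragments in all peaks of the same class and library. Immune nuclei held 229003, 181524, 135331 and 6833 fragments at 0, 48, 72 and 96 h, so that 1 fragment at 96 h stands for 146 FPM (as the 1 fragment of Csf1r did) and levels of that library are mostly left out. Peaks were called in each library on its own, and a gene with fewer or shorter peaks in a library gives fewer fragments there in every class. Endothelial nuclei held 297932, 143518 and 387686 fragments at 0, 48 and 72 h. Their levels are mostly set beside immune intervals as single values, without their own counting error.

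The levels of the selection genes are a description, since they chose the nuclei. Ctsc stood at 449.8 (367 to 545), 755 (634 to 892) and 473 (364 to 604) FPM at 0, 48 and 72 h, against 72.9, 82.2 and 75 in hepatocyte-marker nuclei. Csf1r was at 148 (103 to 207), 567 (463 to 688) and 480.3 (371 to 612), against 21.4, 56.2 and 69.2. Csf1r was lower at 0 h than later in both classes, and its called peaks spanned 6178 bp there against 16643 and 15265 bp. Spi1 was at 131 (88.4 to 187), 259 (190.2 to 344) and 199.5 (131 to 290.3) against 46, 65 and 55.7. Clec4f had 0 fragments and no peak at 0 h, and was at 176 (121 to 249) and 44.3 (16.3 to 96.5) at 48 and 72 h against 7.40 and 7.23. A count at Clec4f was found in 42.3% of immune nuclei (28.7 to 56.8) at 48 h and in 8.93% (2.96 to 19.6) at 72 h, over 3024 and 2089 bp of peaks.

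To see these genes apart from the selection, each was measured in the nuclei chosen by the other 10. The gene had then no part in choosing the immune nuclei, while the libraries and the other conditions stayed. Endothelial nuclei were chosen anew as well, since their sum must exceed the immune one, so that their levels here differ from those under the full rule. Without Ctsc, 18, 36 and 34 nuclei were chosen at 0, 48 and 72 h, and Ctsc stood in them at 234 (147 to 355), 689 (559 to 840.4) and 223 (135 to 349) FPM. The hepatocyte-marker levels of 72.9, 82.2 and 75 lay below each interval, whereas the endothelial level of 199 at 0 h, which was 80.6 under the full rule, lay inside it. Without Csf1r, 39, 40 and 27 nuclei were chosen, and Csf1r stood at 123 (80.3 to 180.0), 507 (396 to 639) and 211 (109 to 368). These intervals lay above the hepatocyte-marker levels of 21.4, 56.2 and 69.2 and the endothelial levels of 55, 114 and 74.5.

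Clec4f stood at 140.4 (90 to 209) in 47 nuclei chosen without it at 48 h, against 7.40 in hepatocyte-marker and 13.9 in endothelial nuclei, and at 44.3 (16.3 to 96.5) in 56 nuclei at 72 h against 7.23 and 5.03. Both intervals lay above both references. Ptprc was at 62.5 (34.2 to 105), 27.5 (8.94 to 64.3) and 16 (1.94 to 57.8) against 3.89, 5.9 and 7.32 in hepatocyte-marker nuclei. Evi2b, a leukocyte membrane protein, was at 45.8 (21 to 87), 44.1 (19 to 86.8) and 7.39 (0.187 to 41.2) against 4.27, 5.87 and 1.57. For both genes the interval held the hepatocyte-marker level at 72 h and lay above it at 0 and 48 h. Endothelial nuclei had 10.1, 6.97 and 5.16 for Ptprc and 22.2, 0 and 2.58 for Evi2b, inside the interval at 72 h for both and at 0 h for Evi2b, whose endothelial level at 0 h was 6.71 under the full rule. Spi1 was at 75.6 (41.3 to 127), 201 (139 to 283) and 53.1 (17.3 to 124) against 46, 65 and 55.7, so that its interval lay above at 48 h only, where it also lay above the endothelial level of 115.

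Over the 4 libraries pooled, the log2 ratio to hepatocyte-marker nuclei in nuclei chosen without the gene was 3.26 for Clec4f, 2.64 for Csf1r, 2.61 for Evi2b, 2.50 for Ptprc, 2.43 for Ctsc and 1.05 for Spi1. The median of this ratio over all genes with at least 10 immune fragments was 0.31 in the full set of immune nuclei. The other 5 genes gave 0 to 4 fragments each. At 96 h the nuclei chosen without a gene had 0 fragments for each of the 11 genes.

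**Figure D2:**
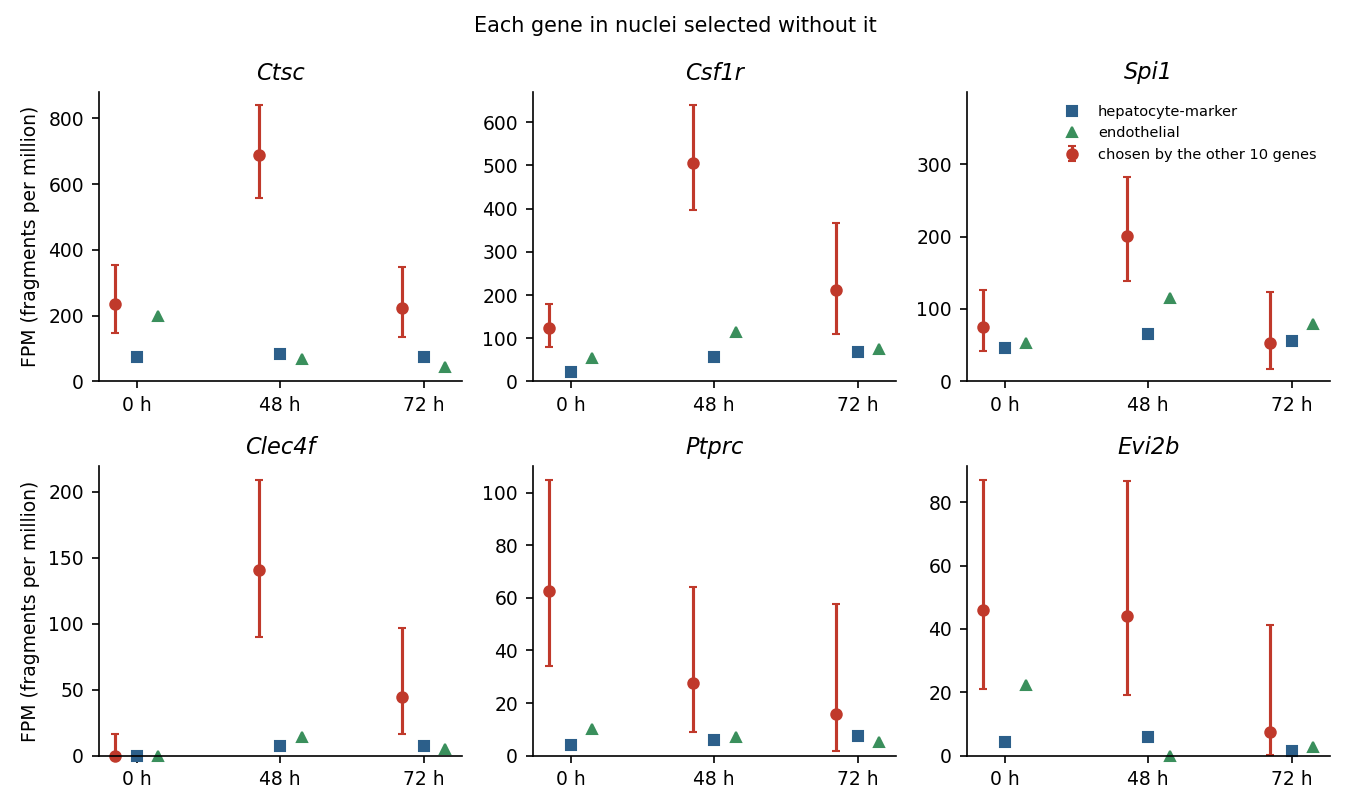
Levels (FPM) at 6 selection genes at 0, 48 and 72 h, in immune nuclei chosen by the other 10 genes (circles, exact 95% Poisson intervals), in hepatocyte-marker nuclei (squares) and in endothelial nuclei (triangles). The intervals of Ctsc and Csf1r lie above the squares in each library, and that of Spi1 at 48 h only; Clec4f had no called peak at 0 h.

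Of 2844 protein-coding genes with at least 10 immune fragments in each of the 0, 48 and 72 h libraries, 73 (2.57%) were at least 2-fold higher in immune than in hepatocyte-marker nuclei in all 3. The count depends on the settings, with 594 of 5311 genes when 72 h was left out, 37 with scaling by the median ratio and 24 with a pseudocount of 5. The rule of selection read these nuclei, so no test was made. Only 11 genes had that many fragments in all 4 libraries, of which 0 (0%) were 2-fold higher in each. The 20 genes outside the selection lists with the largest lowest ratio were led by Sdc3, a heparan sulphate proteoglycan of the cell surface (chr4:130792537-130826319). Sdc3 stood at 48 (24 to 85.9), 215 (153 to 294) and 222 (149.6 to 316) FPM at 0, 48 and 72 h, against 4.87, 15 and 32.2 in hepatocyte-marker and 13.4, 41.8 and 36.1 in endothelial nuclei. Its intervals lay above both reference levels in each library. The endothelial level at 0 h rested on 4 fragments (3.66 to 34.4), an interval that overlapped the immune one.

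Sirpa, the receptor by which phagocytes read the protective signal CD47 (chr2:129592835-129632228), was at 162 (114 to 223), 154 (102 to 223) and 170.0 (108 to 255), levels that hardly differed between libraries. Hepatocyte-marker nuclei had 21.1, 25.3 and 39.7 and endothelial nuclei 124, 83.6 and 41.3, the latter inside the immune interval at 0 h. Rgs2, which dampens G protein signalling (chr1:143999338-144004161), was at 135 (92 to 192), 149 (98 to 216) and 133 (78.8 to 210.2) against 17.4, 24.2 and 28.3 and 50.3, 55.7 and 41.3. Rgs2 was as even over time as Sirpa, and its intervals lay above both reference levels in each library. Its endothelial level at 48 h rested on 8 fragments (24.1 to 110), an interval that overlapped the immune one.

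A pair of iron genes was among the leading genes. Slc40a1 encodes ferroportin, through which macrophages release iron (chr1:45908068-45926523), and was at 371 (296 to 459), 556 (453 to 676) and 192 (126 to 282) against 104, 98.5 and 54.3 in hepatocyte-marker and 175, 83.6 and 36.1 in endothelial nuclei. Fth1, the ferritin heavy chain that stores iron (chr19:9980598-9985098), was at 332 (261 to 415), 292 (219 to 382) and 214 (144 to 308) against 92.8, 50.4 and 31.4 and 131, 69.7 and 23.2. Every immune interval of both genes lay above both references. Best1 was also a leading gene, but it lies beside Fth1 and shares its peaks. Il18bp, which neutralises interleukin 18 (chr7:102014885-102018690), was at 271 (208 to 347), 292 (219 to 382) and 140.4 (84.5 to 219) against 37.8, 62.4 and 50.6 and 94, 83.6 and 51.6, likewise above both.

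Other leading genes were also accessible in endothelial nuclei. Hlx, a homeobox factor (chr1:184727140-184732619), was at 131 (88.4 to 187), 116 (71.6 to 177) and 118 (67.6 to 192) in immune and 181, 125 and 92.9 in endothelial nuclei, against 16, 29.1 and 37.9 in hepatocyte-marker nuclei. The endothelial level of Hlx lay inside each immune interval, and its pooled log2 ratio was 2.16 over hepatocyte-marker and -0.19 over endothelial nuclei. Itga9, an integrin subunit (chr9:118606690-118901003), was at 183 (132 to 248), 215 (153 to 294) and 288 (205 to 394) against 164, 174 and 147 in endothelial nuclei, which lay inside the interval at 0 and 48 h. Zeb2, a transcription factor of macrophages (chr2:44983632-45117395), was at 144 (99.2 to 202), 308 (233 to 401) and 229 (156 to 325) against 148, 118 and 98, inside the interval at 0 h. The other leading genes were Nkiras2, B4galt6, Cd38, Klf2, Sv2c, Usp12, Klhl22, Ubald2, Gm10800 and Gm10801. The last 2 gene models lie in repeats, where reads may be placed wrongly, and their values are uncertain.

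**Figure D3:**
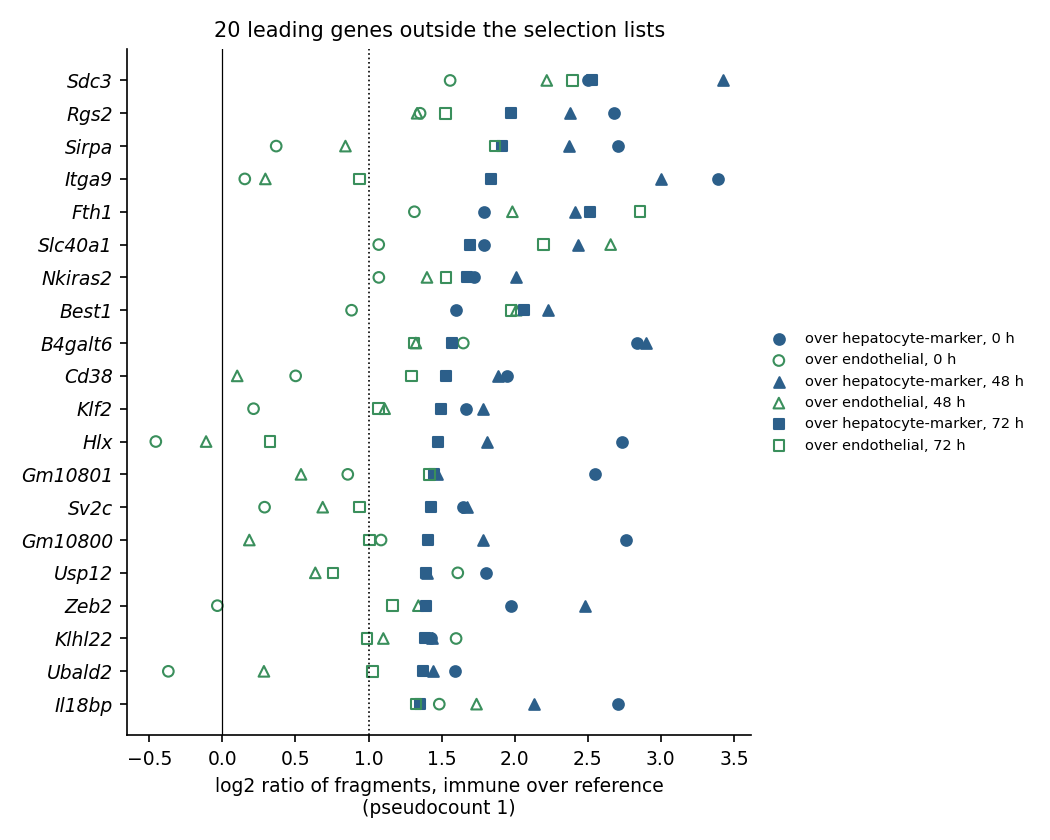
Log2 ratio of fragments at the 20 leading genes in immune nuclei over hepatocyte-marker nuclei (filled) and over endothelial nuclei (open), with 1 symbol for each of the 0, 48 and 72 h libraries; lines mark 0 (solid) and 1 (dotted). The filled symbols lie beyond 1 by the choice of the genes, while the open symbols of Hlx run from -0.46 to 0.33 and those of Fth1 from 1.31 to 2.86.

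Among regions, 58 of 841 with at least 10 immune fragments at 0, 48 and 72 h exceeded hepatocyte-marker nuclei at least 2-fold in all 3 libraries (6.9%), and of 7 such regions in all 4 libraries 0 were. The leading region lay in Csf1r, and region 2 and region 4 were the promoter and an exonic stretch of Ctsc, all in selection genes. Region 2 stood at 253 (192 to 327), 159.8 (107 to 229) and 140.4 (84.5 to 219) FPM at 0, 48 and 72 h, against 18.6, 17.9 and 23.3 in hepatocyte-marker and 57.1, 0 and 5.16 in endothelial nuclei. Of these 3 libraries the Ctsc promoter was highest at 0 h in immune nuclei, with an interval that overlapped that of 48 h. Region 4 (chr7:88287118-88297755), further into the gene, was at 148 (103 to 207), 347 (267 to 444) and 222 (149.6 to 316), with overlapping intervals at 48 and 72 h and peaks of 6621, 10111 and 6751 bp.

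Region 5, in the Ctsb intron, was at 157 (110.1 to 218), 231 (167 to 313) and 88.7 (45.8 to 155) against 12.3, 14.1 and 15 and 80.6, 34.8 and 18.1. Region 6, in Rasgef1b, was at 127 (84.8 to 182), 358 (276 to 456) and 118 (67.6 to 192) against 11.7, 24.5 and 22.7 and 43.6, 55.7 and 31. The immune intervals of both lay above both reference levels in each library, and both regions hold the PU.1 letters printed above. The counting error of the endothelial levels was not set against these intervals. Region 3 (chr8:84199899-84204536) was intergenic, 14682 bp from the nearest gene start, that of Nanos3, and was at 127 (84.8 to 182), 105 (63 to 163) and 103 (56.6 to 174) against 13.4, 14.5 and 15.7 and 121, 83.6 and 33.5. Its endothelial level lay inside the immune interval at 0 and 48 h. Region 7 lay 26456 bp from the start of Snx18, region 8 at the Klhl22 promoter, region 9 at Fth1 and region 10 in St3gal5, and the letters were found in none of regions 3, 4 and 7 to 10.

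Over larger sets, the letters were in 7.0% (4.92 to 9.6) of the 500 regions with the highest pooled ratio of immune to hepatocyte-marker nuclei, read in their central 300 bases. They were in 2.0% (0.963 to 3.65) of the 500 regions with the lowest ratio and in 2.37% (2.12 to 2.64) of all 13696 regions with enough fragments. Gene starts were near 20.4% of the first set, 20% of the second and 54.0% of all, with GC contents of 54.2%, 49.8% and 59.6%. Away from gene starts the PU.1 shares were 7.04% (4.73 to 10), 2.5% (1.21 to 4.55) and 2.84% (2.44 to 3.28). The higher share in regions led by immune nuclei was therefore also present among regions of like position.

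In the sets led by immune and by hepatocyte-marker nuclei, RUNX letters (TGTGGTT) were in 5.2% (3.42 to 7.53) and 4.0% (2.46 to 6.11), AP-1 letters (TGANTCA) in 10.8% (8.22 to 13.9) and 11% (8.39 to 14.1), and the IRF motif in 4.6% (2.94 to 6.82) and 3.8% (2.3 to 5.87), with 3.77%, 6.1% and 3.29% in all regions. These intervals overlapped between the 2 sets. When regions with a peak at 0, 48 and 72 h were used for both sets, PU.1 letters were in 11.4% (8.75 to 14.5) and 1.6% (0.693 to 3.13), RUNX letters in 9.6% (7.16 to 12.5) and 5.8% (3.92 to 8.22), the IRF motif in 7.6% (5.43 to 10.3) and 4.4% (2.78 to 6.59), and AP-1 letters in 14.8% (11.8 to 18.2) and 10.2% (7.69 to 13.2). The intervals of PU.1 were apart there, and those of the other 3 overlapped. In all regions with such peaks the shares were 2.55% for PU.1, 4.53% for RUNX, 3.79% for IRF and 6.68% for AP-1. Each lay below the interval of the immune set, but gene starts were near 49.1% of all these regions and 8.8% of the immune set. FOXA letters (TGTTTAC) were in 4.2% of either set, and GATA letters (AGATAAG) in 1.8% (0.826 to 3.39) and 3.8% (2.30 to 5.87). The SP/KLF letters GGGCGGGG were in 9.0% (6.64 to 11.9) and 4.4% (2.78 to 6.59) against 16.9% of all regions, and the ETS letters CCGGAAGT in 0.6% (0.124 to 1.74) and 0.2% (0.00506 to 1.11) against 3.69%. HNF4A letters (CAAAGTCCA) were in 0.2% of the set led by immune nuclei, 0% of that led by hepatocyte-marker nuclei and 0.54% of all regions. In regions with a peak at 0, 48 and 72 h these shares were 0.2%, 0.8% and 0.564%. The sets led by hepatocyte-marker nuclei thus held few letters of this hepatocyte factor. The central 300 bases of a long region need not be its most open part. Motifs were searched on both strands, the PU.1 and ETS letters share their ending GGAAGT, and a match is a string of letters and no measured binding.

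**Figure D4:**
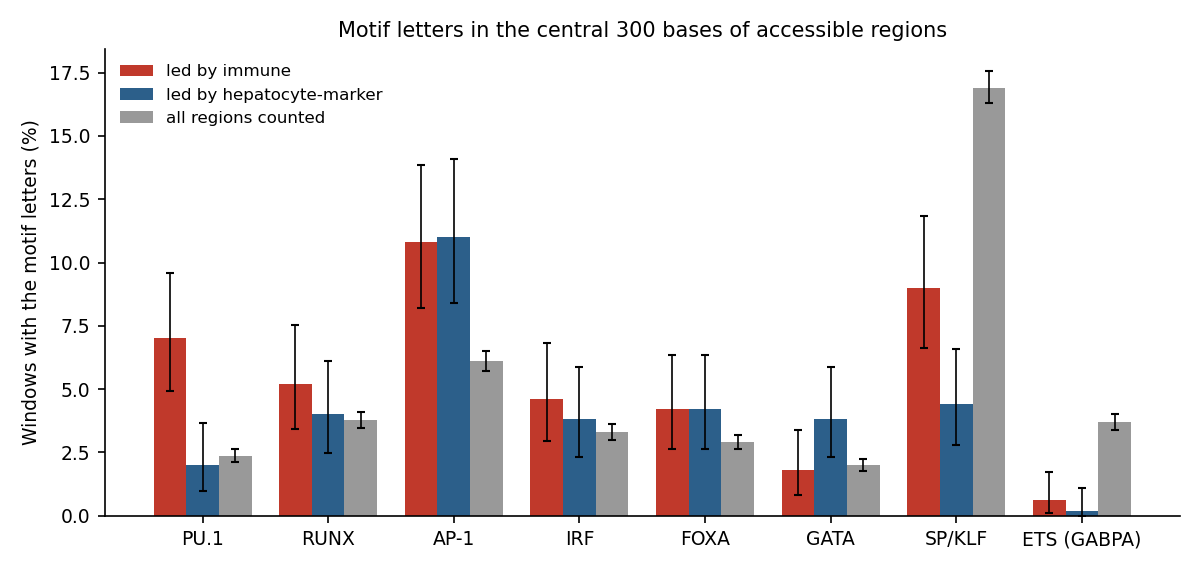
Share of accessible regions (%) whose central 300 bases hold the letters of 8 motifs, for the 500 regions led by immune nuclei, the 500 led by hepatocyte-marker nuclei and all 13696 regions; lines are exact 95% binomial intervals. The PU.1 bar of the immune set, at 7.0%, stands above the intervals of the other sets, while the AP-1 bars stand at 10.8% and 11%.

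Gene lists were compared over the 4 libraries pooled, as immune fragments over those that hepatocyte-marker nuclei of the same libraries would give. Of 12793 protein-coding genes with at least 10 immune fragments, 11.6% were at least 2-fold higher and 5.3% at least 2-fold lower in immune nuclei. A gene that is low in immune nuclei can miss the minimum, so the counts below describe the genes that reached it. Even housekeeping genes, 16 of 16 of which reached it, had a median log2 ratio of 0.61 with 2 called higher, against 0.31 for all genes.

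Of 20 Kupffer cell and macrophage genes beyond the selection, 8 reached the minimum and 7 of these were at least 2-fold higher, with a median log2 ratio of 1.37. Over endothelial nuclei 3 of the 8 were 2-fold higher, with a median of 0.79, against 4.93% and 0.04 for all genes. Mertk, a receptor for dying cells (chr2:128698956-128802894), was at 223 (166 to 293), 286 (214 to 376) and 163 (102 to 246) FPM at 0, 48 and 72 h against 83.4, 82.1 and 94.1 in hepatocyte-marker nuclei. Cd68, a lysosomal glycoprotein of macrophages (chr11:69664213-69666153), was at 245 (185 to 318), 275 (204 to 363) and 140.4 (84.5 to 219) against 95.9, 97.1 and 62.1. Both stood above hepatocyte-marker nuclei in each library, but the endothelial levels of 178, 167 and 132 and of 205, 105 and 90.3 lay inside the intervals at 0 and 72 h. Fcer1g, the shared chain of Fc receptors, was the exception in the list, with a log2 ratio of 0.11 on 97 fragments. C1qc, a chain of complement C1q, had 2.46 on 11 fragments, Cd14 1.53, Fcgr3 1.15 and Slc11a1 1.12.

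The label of Kupffer nuclei could be checked only in part. Vsig4, Timd4, C1qa, Lyz2, Tyrobp and Aif1 had 0 immune fragments, 4 of them for want of a called peak in any library. With Cd5l unread and Adgre1 and Laptm5 at 1 or 2 fragments, Clec4f was the marker narrowly tied to Kupffer cells that gave a level, at 48 and 72 h. The nuclei are therefore called immune nuclei throughout, a name that stands for passing the rule. At 72 h, in nuclei chosen without the gene, Ctsc, Csf1r and Clec4f lay above the hepatocyte-marker level, but the intervals of Ptprc, Evi2b and Spi1 held it. At 96 h 4 of the 5 nuclei had a sum of exactly 4, and none of the genes gave a fragment in nuclei chosen without it. The name is thus least secure at 96 h.

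Some defining markers of lymphocytes and neutrophils were at 0. Several Kupffer cell markers were at 0 as well, so that these zeros do not tell the cell types apart. Cd3e, Cd3d, Cd3g, Cd2, Cd8a, Nkg7, Ncr1, Ms4a1, Jchain, S100a9 and Ly6g had 0 immune fragments. No peak was called in any library at 6 of the T and NK cell genes, 2 of the B and plasma cell genes and 3 of the neutrophil genes. Of 25 T and NK cell genes 7 reached the minimum and 2 were at least 2-fold higher, Prkcq at a log2 ratio of 1.62 and Tbx21 at 1.26. The summed level of the list was 293, 402 and 436 FPM at 0, 48 and 72 h, against 275, 347 and 411 in hepatocyte-marker nuclei. Of 12 B and plasma cell genes 5 reached it and 1 was higher, and of 11 neutrophil genes 2 reached it and 0 were higher. Of 13 monocyte and dendritic cell genes 6 reached it and 2 were higher, Plac8 at 1.24 and Clec9a at 1.23, while Cx3cr1, with the most fragments of the list, was at -0.15.

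Each immune nucleus was also given to the one of 4 immune lists with most fragments in it, with at least 2 and no tie. By this count 79 of 157 went to Kupffer cell and macrophage genes, 21 to T and NK cell genes, 6 to B and plasma cell genes, 1 to neutrophil genes, and 50 stayed unsorted. Macrophage genes led in 28 of 44 nuclei at 0 h, 29 of 52 at 48 h, 20 of 56 at 72 h and 2 of 5 at 96 h. The same count gave macrophage genes the lead in 38.8% of endothelial and 58.3% of hepatocyte-marker nuclei at 0 h, against 63.6% of immune nuclei. At 48 h these shares were 18.8%, 38.2% and 55.8%, and at 72 h 16.1%, 18.3% and 35.7%. Because the lists differ in the number of open regions and hepatocyte-marker nuclei are deeper, the lead of a list in a nucleus does not name its type.

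Of 22 genes shared by most leukocytes 12 reached the minimum and 10 of these exceeded hepatocyte-marker nuclei 2-fold or more, with a median log2 ratio of 1.32. Over endothelial nuclei 4 of the 12 were 2-fold higher, with a median of 0.82, against the same 4.93% and 0.04. Lyn, a kinase of immune receptors (chr4:3678115-3813122), was at 197 (143 to 263), 523 (423 to 639.8) and 281 (199 to 385) against 108, 124 and 119.6 in hepatocyte-marker nuclei, above them in each library. Fyb, an adaptor of immune cells, was at 87.3 (53.3 to 135), 132 (84.7 to 197) and 59.1 (25.5 to 116) against 21.7, 37.6 and 40.7, above at 0 and 48 h. Inpp5d, the phosphatase SHIP1, had a log2 ratio of 2.61 on 24 fragments, Ikzf1, the lymphoid and myeloid factor Ikaros, 2.38 on 20, and Lcp1, which bundles actin in leukocytes, 1.01 on 95. Lcp1 was lower rather than higher, at -0.35, when only peaks near gene starts were counted. Of 5 phagocyte oxidase genes 3 reached the minimum and all 3 were higher, among them Cyba at 2.25 and Ncf4 at 2.13.

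Among 16 macrophage transcription factors 14 reached the minimum, 6 were at least 2-fold higher and 1 was lower. Among the 6 were Batf3 (2.23), Zeb2 (2.05), Irf8 (1.57), Irf5 (1.33) and Id3 (1.25), and Bhlhe41 was at -1.04. Id3, needed for Kupffer cells to form (chr4:136143497-136145755), was at 332 (261 to 415), 248 (181 to 332) and 148 (90.3 to 228) FPM at 0, 48 and 72 h against 113, 123 and 77.5 in hepatocyte-marker and 316, 293 and 113 in endothelial nuclei. Its endothelial levels lay inside each interval, with a pooled log2 ratio of 0.00 over endothelial nuclei.

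Of 15 lysosomal genes all reached the minimum, 8 were at least 2-fold higher and 1 was lower, with a median of 1.05. Ctsd, cathepsin D (chr7:142375911-142388038), was at 341 (269 to 425), 413 (325 to 518) and 103 (56.6 to 174) against 60.6, 44 and 55.4 in hepatocyte-marker nuclei, and Ctsb (chr14:63122462-63145923) at 555 (462 to 659.8), 683 (568 to 814) and 310.4 (224 to 419.5) against 269.7, 257 and 178. Both stood above hepatocyte-marker nuclei in each library, and both were lowest at 72 h. Ctsl, cathepsin L, was the lower member at -1.07 on the pooled log2 scale.

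Of 11 iron and heme genes 9 reached the minimum, 4 were at least 2-fold higher and 1 was lower. The higher ones were Fth1 (2.16), Slc40a1 (2.08), the heme-degrading enzyme Hmox1 (2.07) and the metal transporter Slc11a1 (1.12), and Trf, the transferrin that hepatocytes secrete, was at -1.67. Of 11 antigen presentation genes 8 reached it and 4 were higher, the class II genes H2-Aa (2.32), H2-Ab1 (2.0) and H2-Eb1 (1.44) and their invariant chain Cd74 (2.73). Cd74 was at 114 (74.2 to 166), 204 (144 to 281) and 44.3 (16.3 to 96.5) FPM at 0, 48 and 72 h against 12.3, 21.1 and 20.6, above the reference at 0 and 48 h. These 4 ratios rest on 20 to 69 fragments each, and at 72 h the interval of Cd74 held the reference.

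Of 16 complement and phagocytic receptors 8 reached the minimum and 4 were higher, among them Stab1, a scavenger receptor shared with sinusoidal endothelium, at 1.5 over hepatocyte-marker and -0.01 over endothelial nuclei. Of 15 pattern receptors 7 reached it, with Nod2 (1.42) and Tlr4 (1.3) higher and Tlr9 (-1.66) lower. Of 21 cytokines and growth factors 9 reached it and 4 were higher, Il10 (1.81), Tgfb1 (1.68), Cxcl2 (1.34) and Cxcl16 (1.21). Tgfb1, which restrains growth and inflammation, was at 192 (139.6 to 258), 116 (71.6 to 177) and 88.7 (45.8 to 155) against 42.1, 43.1 and 40.8 in hepatocyte-marker and 141, 146 and 54.2 in endothelial nuclei, the latter inside each interval. Of 12 interferon response genes 9 reached it and 3 were higher, Ifit2 (1.67), Mx1 (1.64) and Irf7 (1.54). Of 16 cell cycle genes 14 reached it and 0 were 2-fold different.

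Of the hepatocyte selection genes, which the rule held low, all 9 that reached the minimum were lower, with Alb at -3.11 and Cps1 at -3.0. Of 16 further hepatocyte genes, which the rule did not read, 16 reached it and 14 were lower, among them Fga, a fibrinogen chain, at -2.93. The summed level of the further hepatocyte genes in immune nuclei was 1245, 1091, 2261 and 3366 FPM at 0, 48, 72 and 96 h, against 6117, 6219.8, 3988 and 5992 in hepatocyte-marker nuclei. It was about as low at 0 as at 48 h and higher at 72 and 96 h. Endothelial selection genes, also held low by the rule, summed to 284, 281 and 318 at 0, 48 and 72 h, close to the 316, 319.9 and 357 of hepatocyte-marker nuclei and below the 1208, 1714 and 1143 of endothelial nuclei. Of 15 further endothelial genes 5 reached the minimum and 2 were higher, Cdh5 at 2.84 on 24 fragments and Stab1. These 15 genes summed to 188 (136 to 253), 331 (252 to 425) and 377 (281 to 495) FPM in immune nuclei, against 507, 690 and 384 in endothelial and 186, 248 and 306 in hepatocyte-marker nuclei. At 72 h the interval held both references, so that the further endothelial genes did not tell immune from endothelial nuclei in that library.

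**Figure D5:**
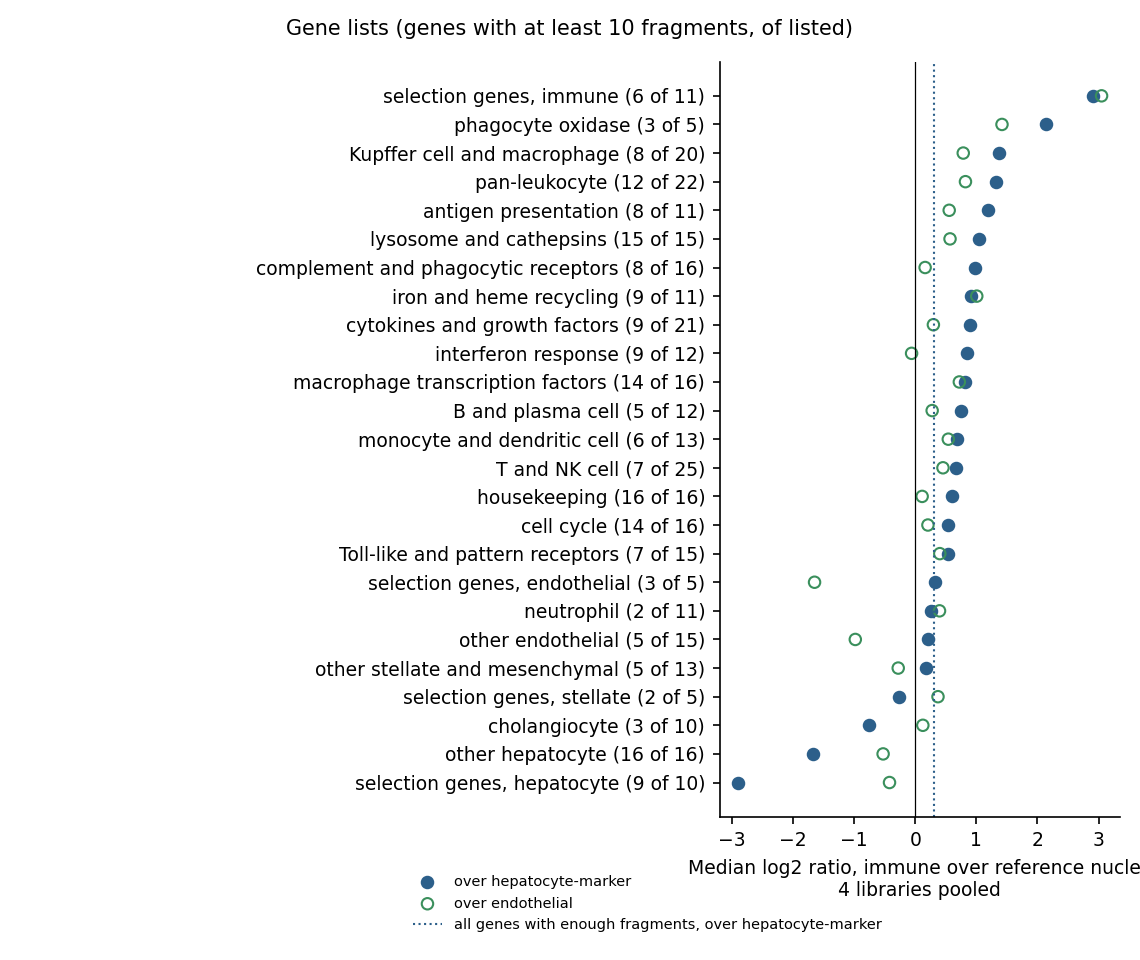
Median log2 ratio of each gene list in immune nuclei over hepatocyte-marker nuclei (filled) and over endothelial nuclei (open), 4 libraries pooled, with the genes that reached 10 fragments of those listed; the dotted line is the median of all genes, 0.31. Phagocyte oxidase, macrophage and leukocyte lists stand at 1.32 to 2.13 over hepatocyte-marker nuclei and hepatocyte lists at -1.68 and -2.90.

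For comparisons over time only regions with a peak in all 4 libraries were counted, and the median hepatocyte share and depth given above moved with time as well. Of 6506 genes with at least 20 immune fragments in both libraries together, 202 (3.1%) were at least 2-fold higher and 432 (6.64%) lower at 48 h than at 0 h. Without Ctsc in the rule, 192 were higher and 152 lower. Hmox1, which breaks down heme, was at 65.1 FPM (interval 34.7 to 111) at 0 h and 340.2 (252 to 449.8) at 48 h, a log2 ratio of 2.29. In hepatocyte-marker nuclei Hmox1 was at 31.3 and 54.6, a log2 ratio of 0.8, and its peaks spanned 2888 and 11709 bp. Hmox1 was thus higher in both classes and in longer peaks, and more so in immune nuclei. Pcna, the clamp of DNA replication, was at 55.1 FPM (interval 27.5 to 98.6) at 0 h and 243 (169 to 338) at 48 h, with log2 ratios of 2.03 in immune and 1.26 in hepatocyte-marker nuclei. Tmem230 lies beside it and had 1.74 and 1.38, and Aacs, an enzyme of ketone use, had 1.68 and 1.14. The peaks of these genes were also longer at 48 h, from 5534 to 13782 bp for Pcna, 6845 to 19139 bp for Tmem230 and 29180 to 57559 bp for Aacs.

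Tmem37, a membrane protein gene, was at 90.1 FPM (interval 53.4 to 142) at 0 h and 340.2 (252 to 449.8) at 48 h, a log2 ratio of 1.85 against 0.19 in hepatocyte-marker nuclei, with peaks of 9029 and 11956 bp. Genes lower at 48 h were Fbxl19 (-2.03), Hnrnpdl (-1.71), Dctn4 (-1.59), Sertad2 (-1.52) and Fbrs (-1.52). The same genes were at -0.16 to -0.76 in hepatocyte-marker nuclei. Of the Kupffer cell and macrophage list 5 genes reached the minimum at 48 h and 0 were 2-fold different, with a median log2 ratio of 0.02, and of 13 macrophage transcription factors 2 were higher and 0 lower. The median over all genes was -0.06.

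At 72 h 473 of 5739 genes (8.24%) were at least 2-fold higher and 1022 (17.8%) lower than at 0 h. With ratios centred on their median of -0.24, which brings the directions towards balance, 707 were higher and 620 lower, and without Ctsc in the rule 231 and 253. With the hepatocyte limit at 0.1% they were 187 and 678, with a sum of at least 6 they were 206 and 599, and relative to hepatocyte-marker nuclei 514 and 854. The 5 genes with the largest rises stood at 46.5 (Tmem132b) to 677 (Kyat3) FPM in hepatocyte-marker nuclei at 0 h. Hpx, the hepatocyte protein hemopexin that binds free heme, was at 25 FPM (interval 8.13 to 58.4) at 0 h and 327 (230.3 to 451) at 72 h. Kyat3, an enzyme of kynurenine metabolism, was at 70.1 FPM (interval 38.3 to 118) at 0 h and 504 (382 to 653) at 72 h, and Cxadr, an adhesion receptor of epithelia, at 50.1 FPM (interval 24 to 92.1) at 0 h and 645 (506 to 811) at 72 h. Their log2 ratios in immune nuclei were 3.41, 2.74 and 3.53, and in hepatocyte-marker nuclei 1.58, 0.00 and 0.87. Tmem132b and Aacs had 3.8 and 2.84 in immune and 3.02 and 1.79 in hepatocyte-marker nuclei. Their peaks were longer at 72 h, from 11314 to 36887 bp and from 29180 to 56574 bp, while those of Hpx, Kyat3 and Cxadr were of like length.

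Further hepatocyte genes moved with these. Of 13 of them that reached the minimum at 72 h, 8 were higher and 0 lower, with a median log2 ratio of 1.13 in immune and -0.27 in hepatocyte-marker nuclei, against -0.24 over all genes in immune nuclei. With the hepatocyte limit at 0.1% in place of 0.2%, the ratio of Hpx was 3.43, of Tmem132b 2.44, of Cxadr 2.40, of Aacs 1.77 and of Kyat3 1.42. The part of hepatocyte fragments in the values of 72 h was not tested beyond this. Genes lower at 72 h were Casp9 (-3.14), a protease that starts cell death, Gm44973 (-3.14), Bclaf1 (-3.07), Trim8 (-2.82) and Ifnar2 (-2.67), a chain of the interferon receptor that was at 315 FPM (interval 242 to 404) at 0 h and 44.2 (14.4 to 103) at 72 h. In hepatocyte-marker nuclei these 5 were at -0.25 to -0.63. At the limit of 0.1% Casp9 was at -1.81, Gm44973 at -2.54, Bclaf1 at -2.33, Trim8 at -2.75 and Ifnar2 at -2.37. The Kupffer cell and macrophage list had 4 genes at the minimum, of which 0 were 2-fold different, with a median of -0.48, and of 11 lysosomal genes 1 was higher and 3 were lower.

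At 96 h 467 of 3416 genes (13.7%) were at least 2-fold higher and 1539 (45.1%) lower than at 0 h, on 5 nuclei. With an unscaled pseudocount 1250 of the same genes were higher and 57 lower, so that the direction at 96 h was set by the form of the pseudocount. Slc25a47, a mitochondrial carrier of hepatocytes, led with 13 fragments and a log2 ratio of 3.74. It was followed by Wars, which lies beside it, Egfr, Rbpjl and 2900026A02Rik, on 8 to 12 fragments. When Ctsc was left out of the selection 1 nucleus remained at 96 h, and the ratio of Slc25a47 was -2.33. The genes lower at 96 h, Klf13, E030018B13Rik, Zfp710, Litaf and Prdx2, had 0 fragments there, which allows up to 548 FPM, and stood at 536 to 761 FPM at 0 h. E030018B13Rik lies inside Klf13, so that these 2 are not separate loci. At this depth changes of immune nuclei at 96 h were hardly detectable.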

How the data were processed

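Counts of transposase cut sites for each peak and barcode were deposited for 4 scATAC-Seq libraries. The authors counted with Cell Ranger ATAC (version 1.1.0 per the file headers, mm10 per the submitters' processing notes), from peaks called separately for each library. Even values made up 87.3% to 88.6%, because a fragment inside a peak has 2 ends, so each value was divided by 2 and rounded up to give fragments. Total counts were 136949314, 62553202, 25540258 and 15809769 at 0, 48, 72 and 96 h, over 20217 deposited barcodes in all. The sources used here name no cutoffs for other filters on nuclei.

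Counts were summed over peaks that overlap a GENCODE vM21 gene body or the 2 kb upstream. On 0 chromosomes did a peak pass the end in GRCm38.p6, the assembly of mm10. Nuclei were classed by the rule in the report, with endothelial nuclei chosen likewise by their 5 genes. No doublet caller was run, and leaving out the 5% deepest nuclei was an alternative. Log2 ratios add 1 fragment on the scale of the immune nuclei (shared by depth between time points), and called means past 2-fold. No p-value was computed, as each group was 1 library. Genes needed 10 immune fragments, and 20 over both libraries for time points. Regions are merged peaks of the 4 libraries. Named were the 11 selection genes, in each list the 4 members with most fragments and defining markers at 0, 20 genes and 10 regions with the largest lowest ratio, and for each time point the 5 largest ratios in each direction with at least 40 fragments. Other list members are named where a call falls on them, after their values were seen. A few list members are not reported here. The ratio functions were checked on simulated fragments, built from the levels after these were computed.

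Members and lists were chosen with earlier results of these data known. After a first run, 3 choices were made: the form of the pseudocount (1 raw fragment in each group at first), the use of 0, 48 and 72 h where too few genes passed in all 4 libraries, and the measurement of each selection gene in nuclei chosen without it. Promoter sequences are from RefSeq (GRCm38.p6). Python 3.11.15 was used with numpy 2.4.6, scipy 1.17.1, pandas 2.3.3 and matplotlib 3.10.9.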

Additional observations from a re-analysis of the deposited data

How the results depend on the processing

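Shares of immune nuclei depended on the limits. With a hepatocyte limit of 0.1% they were 0.611% at 72 h and 0.031% at 96 h, and with 0.4% they were 3.29%, 4.27%, 4.93% and 1.58% at 0, 48, 72 and 96 h. An immune sum of at least 6 gave 0.729%, 0.925%, 0.611% and 0.031%, and one of at least 2 gave 1.43%, 1.80%, 3.22% and 1.49%. Without Ctsc in the rule the shares were 0.453%, 0.925%, 0.799% and 0.031%, and with at least 2 genes required that of 72 h was 0.916%. Thinning by median depth gave 0.370% and 0.866% at 0 and 48 h, and thinning to 1000 counts 0.176%, 0.257% and 0.282% at 0, 48 and 72 h. At 96 h the share was the lowest of the 4 under each of these except the sum of at least 2, where 0 h was lower, and its interval overlapped that of 0 h under both thinnings.

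The 73 genes higher at 0, 48 and 72 h became 161 with cut sites, 37 and 44 with scaling by the median ratio and by housekeeping genes, 26 with promoter peaks, 24 with a pseudocount of 5, 164 with no minimum, 115 with an unscaled pseudocount and 36 without Ctsc. Without 72 h the count was 594 of 5311, and leaving out either of the other 2 gave 94 to 98. Over all 4 libraries the 0 genes became 2 with cut sites and 11 with no minimum, and without 96 h 73. The median scaling moved all ratios by 0.12, 0.14, 0.16 and -0.25 and the housekeeping scaling by -0.23, -0.42, -0.09 and -0.01 at the 4 times. With promoter peaks 4 leukocyte genes and 0 T and NK cell genes reached the minimum, and 2 and 0 were higher. Without Ctsc 1 of 3 and at 0.1% 1 of 5 T and NK cell genes was higher. With promoter peaks the pooled ratio changed sign for Egfl7 (0.20), Lcp1 (-0.35) and Fbln5 (0.12), the cause was not tested, and it moved for 9 other genes. Over 120 pooled ratios and 16 settings, 1875 of the values stayed and 19 moved.

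Genes 2-fold different at 48 h were 634 of 6506, and 1714 of 10536 with cut sites, 317 of 3366 in regions of near-equal peak length, 276 with a pseudocount of 5, 3186 of 15089 with no minimum and 344 of 2868 without Ctsc (192 higher and 152 lower, against 202 and 432). At 72 h they were 1495 of 5739, and 3165 of 10023, 374 of 1411, 887, 5219 of 15195 and 484 of 1862 (231 higher and 253 lower, against 473 and 1022) under the same settings, 805 of 3382 with a sum of at least 6 and 865 of 3648 at 0.1%. At 96 h they were 2006 of 3416, and 5971 of 7735 with cut sites, 18 of 28 at near-equal length, 11974 of 14677 with no minimum, 1307 with the unscaled pseudocount (1250 higher and 57 lower) and 625 without Ctsc. Ratios at 96 h changed sign with a sum of at least 6 for Wars (-3.60), Rbpjl (-3.87) and 2900026A02Rik (-4.26), at 0.1% for 2900026A02Rik (-3.71), and without Ctsc for Slc25a47 (-2.33), Wars (-2.47), Egfr (-2.59) and Rbpjl (-2.47), where 1 nucleus was left. With at least 3 fragments B and plasma cell genes led 3 nuclei and neutrophil genes 0. In regions with a peak at 0, 48 and 72 h the PU.1 share was 11.4%, against 2.55% of all such regions. The alternatives without Ctsc, with at least 2 genes and with the unscaled pseudocount, those at 0.1% for genes and lists, and the regions with a peak at 0, 48 and 72 h, were chosen after seeing the data. No paired analysis was possible because each time point was 1 library and no result comes from a test.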
